A study of Saccharomyces cerevisiae with 6 samples.

Results

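The genes described here, apart from IZH4, move zinc across the membranes of the yeast Saccharomyces cerevisiae or are controlled by its zinc sensor, Zap1. IZH4 was included as a relative of IZH1 and IZH2. All were chosen by name, with earlier results of these data known. The importers are ZRT1 and ZRT2, and the vacuolar transporters are ZRT3, ZRC1 and COT1. The others are the regulator ZAP1, the secreted protein gene ZPS1 and the membrane protein genes IZH1, IZH2 and IZH4. Each of the 10 genes was represented by 1 probe set, so that they made up 10 of the 5498 S. cerevisiae probe sets tested (5449 genes). All cultures derived from the laboratory reference strain CEN.PK113-7D. The medium was minimal, with glucose at 10 g/L, and samples came from a chemostat, a vessel fed at a fixed rate, at the critical dilution rate. All 3 strains carried the plasmid pYX212, which was empty in the control strain, held NOX in the NOX strain and AOX in the AOX strain. NOX is known as an NADH oxidase and AOX as an alternative oxidase, and neither the promoter that drove them nor the zinc concentration of the medium is given in the sources used here. Each strain had 2 Affymetrix Yeast Genome 2.0 arrays, 6 in all, and the labels do not say whether the 2 came from separate cultures, so that p-values measure only how far these arrays differ, and that spread may be technical.

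Yeast takes up zinc through Zrt1, a transporter of high affinity, and Zrt2, one of low affinity. Surplus zinc is moved into the vacuole by Zrc1 and Cot1 and is released from it by Zrt3. When zinc runs short, Zap1 activates a set of genes that includes ZRT1, ZRT3, ZPS1, ZRC1 and its own gene, while ZRT2 is known to be activated in mild and repressed in severe shortage.

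Levels are given as deposited probe set intensities, which have no absolute unit and cannot be compared between genes. Differences are on the scale of log2(intensity + 16) after quantile normalization, with limma's standard error (SE) and p-values adjusted over all 5498 probe sets. Changes counted as rises or falls had an adjusted p below 0.05. All 10 zinc genes were brighter on every array than a background level, the 95th percentile of that array's signals from other-organism probe sets, as were 94.7% to 96.9% of the S. cerevisiae probe sets. The 2 arrays of a strain differed by a median of 0.0275 over all probe sets in control, 0.0682 in AOX and 0.124 in NOX (absolute log2 difference), and by 0.0248, 0.0708 and 0.103 over the zinc genes. The fit pools these unequal spreads. NOX replicate 1 stood apart from the other arrays in its hybridisation controls (10.95 against 9.41 to 9.81, mean log2) and its ribosomal RNA probe sets (4.93 against 5.77 to 7.09). The 4 marker genes of mating type a were above background on every array, and their summed intensity ran from 9981 to 15359. That of the 4 markers of mating type alpha ran from 426 to 493. Of these, SAG1, STE3 and MF(ALPHA)1 were also above background on every array. MF(ALPHA)2 was under it on both control arrays, 1 NOX array and 1 AOX array. The 2 sums cover different genes and cannot be compared with each other.

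The zinc importers were lower in the AOX strain, and ZRT1 by far the most. ZRT1, the high-affinity zinc importer, had intensities of 967 and 954 on the control arrays, 969 and 1186 on the NOX arrays and 210 and 203 on the AOX arrays. Both AOX arrays were thus far below the other 4, which lay close together. ZRT1 fell by 2.14 from control to AOX on the log2 scale, 4.42-fold (SE 0.08, n = 2 arrays per strain, adjusted p = 0.000229), and ZRT1 ranked 1 of the 5498 probe sets when ordered from the largest fall. In NOX it stood 0.17 above control, within an interval of -0.02 to 0.36 (95%, adjusted p = 0.272). Without NOX replicate 1 the value was 0.27, and without NOX replicate 2 it was 0.06. In these cultures a lower level in every cell and a lower level in some of the cells cannot be told apart.

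ZRT2, the low-affinity importer, had intensities of 582 and 576 in control, 425 and 482 in NOX and 400 and 417 in AOX. Both oxidase strains were below both control arrays, and their ranges did not overlap each other on these 4 arrays. ZRT2 fell by 0.49 in AOX (SE 0.06, 1.40-fold, adjusted p = 0.00849) and by 0.35 in NOX (SE 0.06, 1.27-fold, adjusted p = 0.0333). The AOX and NOX strains differed by -0.14 (95% interval -0.28 to 0.00, adjusted p = 0.223), which did not pass the test. The call in NOX also ended without either AOX array (adjusted p = 0.0877 and 0.0891).

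Among the vacuolar transporters COT1 alone passed the test. COT1, which carries cobalt and zinc into the vacuole and is also known as a target of the iron regulator Aft1, had intensities of 825 and 817 in control, 798 and 844 in NOX and 1213 and 1193 in AOX. The AOX arrays were above all others, and those of control and NOX lay within the same range of deposited values. COT1 rose by 0.54 in AOX (SE 0.04, 1.46-fold, adjusted p = 0.00251), against 0.02 in NOX (95% interval -0.09 to 0.13, adjusted p = 0.828). ZRC1, the other zinc importer of the vacuole and a relative of COT1, differed from control by 0.00 in AOX (95% interval -0.23 to 0.23) and by 0.15 in NOX (-0.08 to 0.37). Its AOX intensities overlapped those of both other strains, and both NOX values lay above both control values, at 1152 and 1147 in control, 1314 and 1199 in NOX and 1086 and 1207 in AOX. ZRT3, the exporter of vacuolar zinc, ranged from 1047 to 1204 over the 6 arrays and differed from control by -0.07 in AOX (95% interval -0.22 to 0.09) and by -0.01 in NOX (-0.16 to 0.15).

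ZAP1, the gene of the zinc-sensing activator, was lower in both oxidase strains, but passed the test in AOX only, and the difference between the strains did not pass. Its intensities were 253 and 258 in control, 200 and 224 in NOX and 188 and 207 in AOX. All 4 arrays of the oxidase strains lay below both control arrays. ZAP1 fell by 0.36 in AOX (SE 0.06, 1.28-fold, adjusted p = 0.0368). It stood at -0.25 in NOX (SE 0.06, adjusted p = 0.0874), and the AOX and NOX strains differed by -0.10 (95% interval -0.25 to 0.05, adjusted p = 0.371). Without NOX replicate 2 the value in NOX was -0.29, and without NOX replicate 1 it was -0.22. Over the 6 arrays the levels of ZAP1 and ZRT2 had a Pearson correlation of 0.988, the highest among all pairs of the 10 zinc genes. That of ZRT1 with COT1 was the lowest, -0.994, and both values rest on 3 strain means.

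**Figure D1:**
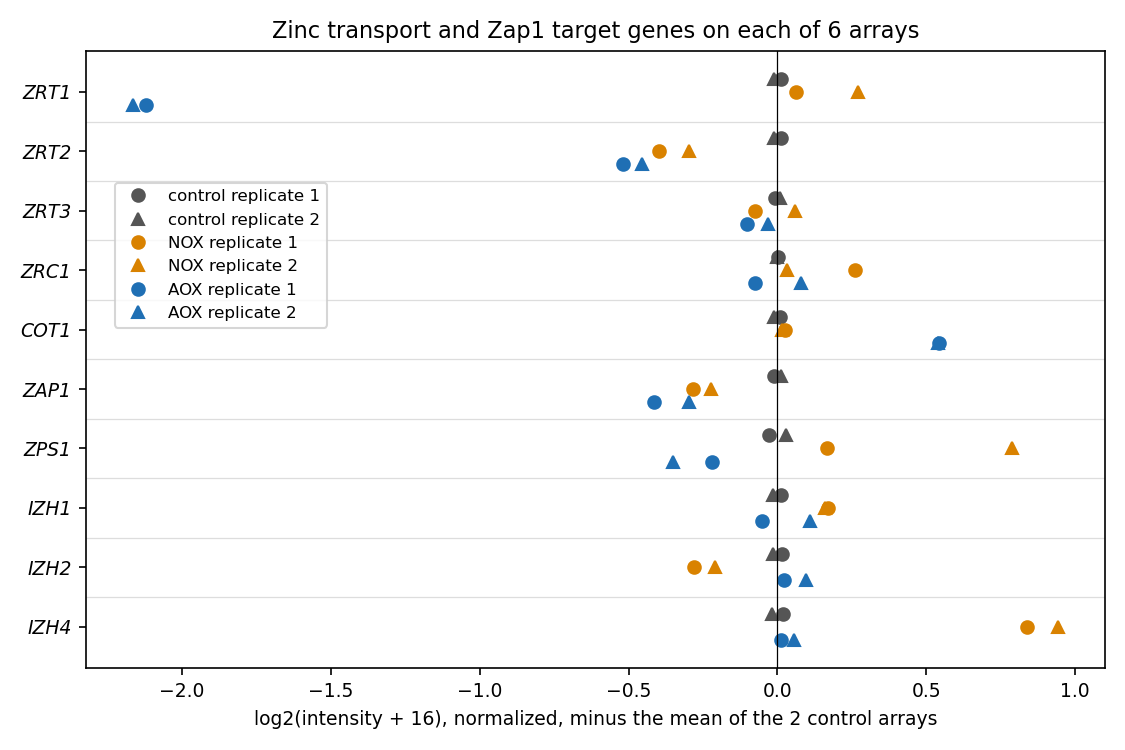
Level of each of the 10 zinc genes on each array, as normalized log2(intensity + 16) minus the mean of the 2 control arrays of that gene; colours are strains and shapes are replicate numbers. The AOX arrays lie far to the left for ZRT1 and to the right for COT1, the NOX arrays lie to the right for IZH4, and the NOX arrays of ZPS1 lie far apart from each other.

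ZPS1, known as a strongly zinc-responsive gene of a protein at the cell surface, had the widest spread among replicates of the 10 genes. Its intensities were 210 and 221 in control, 236 and 395 in NOX and 183 and 165 in AOX. NOX replicate 2 stood above the other 5 arrays, and the 2 NOX arrays differed by 0.62 on the log2 scale. ZPS1 stood at 0.48 in NOX (SE 0.19, adjusted p = 0.224) and at -0.29 in AOX (SE 0.19, adjusted p = 0.615). The difference of AOX from NOX was -0.76 (95% interval -1.24 to -0.28, adjusted p = 0.0776). None of these passed in the reported fit. With median scaling on other-organism probe sets the difference of AOX from NOX was called (-0.79, adjusted p = 0.0466), but under no other scaling. Left with NOX replicate 2 alone the value in NOX was 0.79, and with NOX replicate 1 alone it was 0.17. The difference of AOX from NOX was -1.07 without NOX replicate 1 and -0.45 without NOX replicate 2. With 1 NOX array left, the spread between the 2 NOX arrays no longer enters the fit. Such a fit cannot decide whether ZPS1 differed.

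The IZH genes encode membrane proteins related to animal receptors for progestins and adiponectin, and IZH1 and IZH2 are known Zap1 targets. IZH4 had intensities of 179 and 174 in control, 316 and 361 in NOX and 175 and 183 in AOX. The NOX arrays were far above the other 4, and those of control and AOX overlapped. IZH4 rose by 0.89 in NOX (SE 0.06, 1.85-fold, adjusted p = 0.00248) and stood at 0.03 in AOX (95% interval -0.11 to 0.17, adjusted p = 0.86).

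IZH2 had intensities of 493 and 491 in control, 393 and 434 in NOX and 501 and 526 in AOX. Both NOX arrays were the lowest, but the value of -0.25 in NOX did not pass (SE 0.05, adjusted p = 0.076), nor did 0.06 in AOX (adjusted p = 0.726). Without NOX replicate 2 the value in NOX was -0.28, and without NOX replicate 1 it was -0.21. The 2 oxidase strains themselves differed in IZH2, by 0.30 from NOX to AOX (SE 0.05, adjusted p = 0.0271). IZH1 ranged from 1046 to 1229 and stood at 0.16 in NOX (95% interval 0.00 to 0.33, adjusted p = 0.22) and at 0.03 in AOX (-0.13 to 0.19). Over the 6 arrays IZH2 and IZH4 had a Pearson correlation of -0.931 and IZH1 and IZH4 one of 0.838.

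Set beside all probe sets, 4 of the 10 zinc genes changed in AOX, where 3.58% of all probe sets were called. The 10 genes were chosen with earlier results of these data known, so such counts only describe them. COT1 was the 1 higher gene (2.55% of all probe sets) and ZRT1, ZRT2 and ZAP1 the 3 lower ones (1.04%). In NOX 2 changed against a background of 3.71%, IZH4 higher (2.8% of all probe sets) and ZRT2 lower (0.909%), and ZRT2 was the one gene called in both comparisons, which share their control arrays. The median change of the 10 genes was -0.03 in AOX and 0.08 in NOX, and that of all probe sets was -0.0024 and -0.0037. The arrays of the groups did not overlap for 7 of the 10 genes between AOX and control (58.2% of all probe sets) and for 9 between NOX and control (55.5%), shares too common on these arrays to be read as changes. The call of ZRT1 held when any single array was left out. The AOX calls of ZRT2, COT1 and ZAP1 and the NOX call of ZRT2 ended without either control array. That of IZH4 in NOX ended without control replicate 2. Without control replicate 1 the changes were -0.47 for ZRT2, 0.55 for COT1 and -0.37 for ZAP1 in AOX, and 0.91 for IZH4 and -0.33 for ZRT2 in NOX. Without control replicate 2 these changes were -0.50, 0.53, -0.34, 0.87 and -0.36. Leaving out AOX replicate 1 or 2 ended the AOX calls of ZRT2 (changes of -0.45 and -0.52) and ZAP1 (-0.30 and -0.41). In each of these fits the calls over all probe sets also became fewer.

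**Figure D2:**
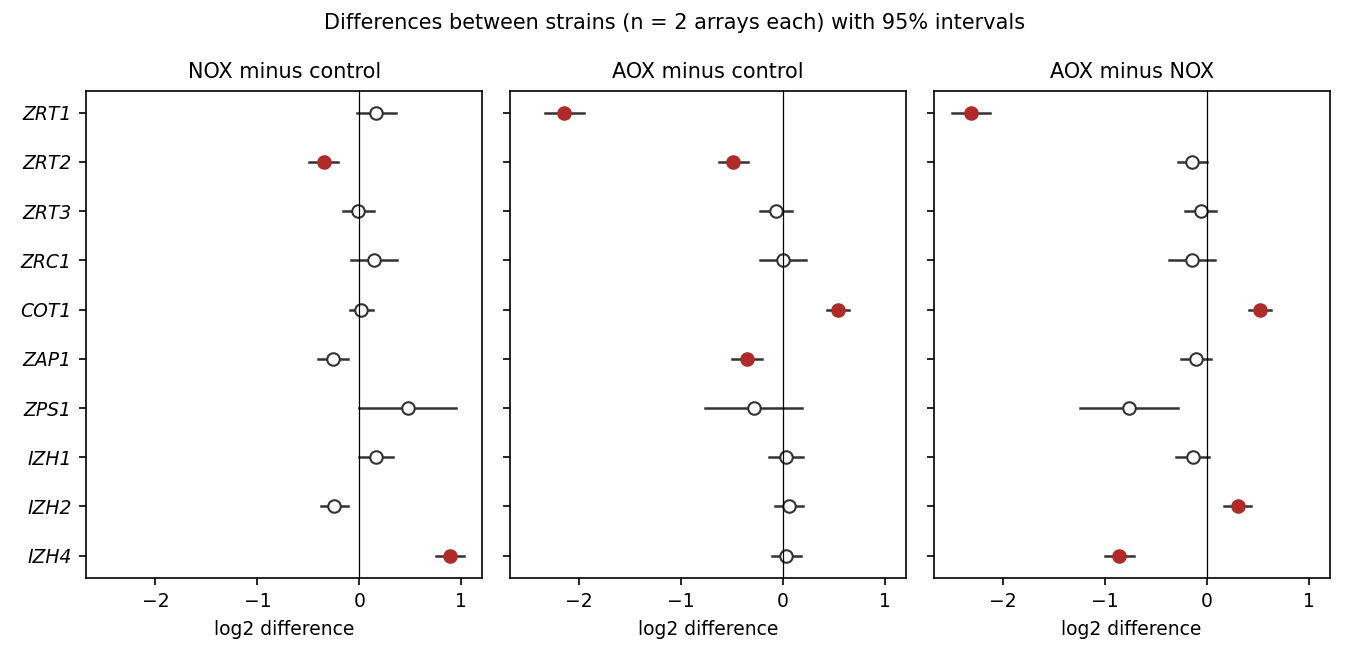
Log2 differences between the strains for each of the 10 zinc genes (circles) with their 95% intervals (lines), from the fit over all 6 arrays; filled circles had an adjusted p below 0.05. ZRT1 at -2.14 in AOX lies far outside the other values, and IZH4 at 0.89 is the largest rise in NOX among these genes.

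The direct comparison of the oxidase strains tested whether they differed in these genes. For ZRT1 the AOX strain stood at -2.31 relative to NOX (log2, SE 0.08, 4.97-fold, adjusted p = 8.95e-05). IZH4 was lower as well (-0.86, SE 0.06, 1.81-fold, adjusted p = 0.00077), and COT1 was higher (0.52, SE 0.04, 1.44-fold, adjusted p = 0.00191). With IZH2 these made 4 of the 10 genes, where 8.38% of all probe sets were called. COT1 and IZH2 were the 2 higher genes (4% of all probe sets) and ZRT1 and IZH4 the 2 lower ones (4.38%). The median difference of the 10 genes was -0.14, that of all probe sets 0.01, and 8 of the 10 did not overlap between the strains (46.2% of all probe sets). ZRT1, IZH4 and COT1 kept their call in this comparison without any single array, whereas IZH2 did not (adjusted p = 0.121 without either control array, and 0.10 and 0.159 without AOX replicates 1 and 2).

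Beyond the 10 genes, 20 of 21 other genes listed as Zap1 targets were measured, and none of them rose or fell in either oxidase strain under the reported normalization (3.71% of all probe sets were called in NOX and 3.58% in AOX). For FET4 in NOX this depended on the normalization, since it was called lower under each of the 4 other scalings (-0.42 to -0.31, adjusted p = 0.0227 to 0.0394). In AOX their changes ran from -0.25 to 0.22 with a median of 0.02, 10 above and 10 below 0. In NOX they ran from -0.31 to 0.09 with a median of -0.05. At an unadjusted p under 0.05, limma gave 7 of the 20 in NOX (22.3% of all probe sets) and 5 in AOX (13.7%). With only the 4 arrays compared, MUP1 was called in AOX (0.22, adjusted p = 0.0382), where 363 of 5498 probe sets were called. In NOX, MUP1 and MCD4 stood at -0.17 and -0.21 without NOX replicate 2, and at -0.22 and -0.18 without NOX replicate 1. One target, VEL1, was not well above background on any array. ADH4, a Zap1 target that encodes an alcohol dehydrogenase, is the nearest protein-coding gene before ZRT1 in the R64 gene table. Its intensities were 453 and 456 in control, 333 and 442 in NOX and 468 and 437 in AOX. It stood at -0.01 in AOX (95% interval -0.27 to 0.26, adjusted p = 0.989), an interval that ends well short of the fall of ZRT1. In NOX it stood at -0.23 (adjusted p = 0.261), at -0.39 without NOX replicate 2 and at -0.08 without NOX replicate 1. Between AOX and NOX it stood at 0.23 (adjusted p = 0.27), and at 0.38 and 0.07 without NOX replicates 2 and 1. FZF1, the next gene after ZRT1 and known as a sulfite resistance regulator, stood at 0.09 in AOX against control (95% interval -0.06 to 0.24).

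Between AOX and NOX, 3 of the 20 targets passed, all higher in AOX, where 8.38% of all probe sets were called and 4% were higher. Of the 20, 15 lay above 0, and their median was 0.07 against 0.0089 over all probe sets. MUP1, a methionine permease, was higher by 0.41 (SE 0.05, adjusted p = 0.00644), with intensities of 1094 and 1060 in control, 922 and 933 in NOX and 1263 and 1240 in AOX. MCD4, of glycolipid anchor synthesis, was higher by 0.29 (adjusted p = 0.0184), and DPP1, a lipid phosphatase of the vacuole, by 0.28 (adjusted p = 0.0446). These differences run opposite to that of ZRT1. The DPP1 call held under 6 of 18 alternatives only. It ended on the deposited values (adjusted p = 0.0676), with other-organism scaling (0.051) and with a pseudocount of 1 (0.0509). Each call ended without AOX replicate 1 (adjusted p = 0.0641 for MUP1, 0.116 for MCD4 and 0.201 for DPP1) and without AOX replicate 2 (0.0588, 0.114 and 0.0886). Those of MCD4 and DPP1 also ended without control replicate 1 (0.105 and 0.168) or 2 (0.106 and 0.168), and that of DPP1 without NOX replicate 1 (0.0759).

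**Figure D3:**
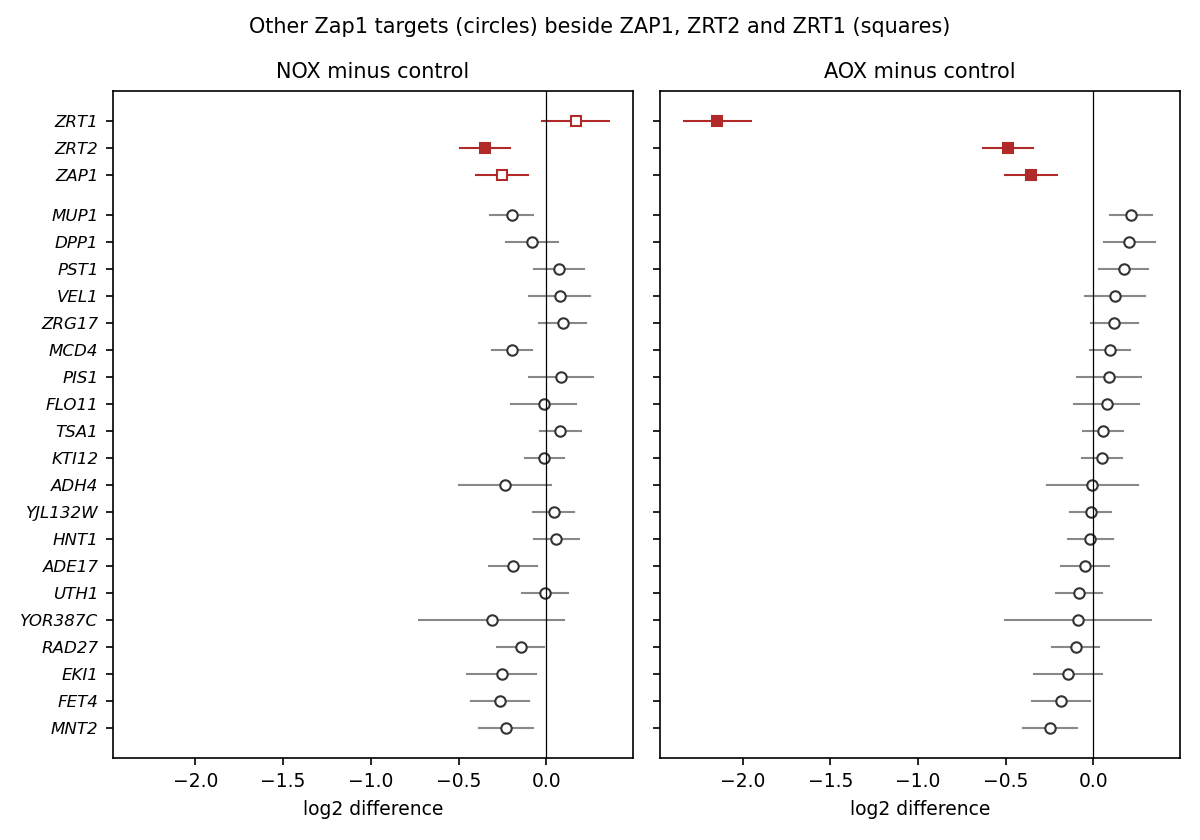
Log2 differences from control of the 20 other Zap1 targets (circles), ordered by their value in AOX, beside ZAP1, ZRT2 and ZRT1 (squares), with 95% intervals; filled symbols had an adjusted p below 0.05. The circles stay between -0.31 and 0.22 in both panels, while ZRT1 stands at -2.14 in AOX.

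In the list of 10 other genes of zinc transport and handling, 1 rose in AOX and none changed in NOX (2 at an unadjusted limma p under 0.05, where 22.3% of all probe sets were), against 2.55% of all probe sets called higher in AOX and 3.71% called in NOX, with medians of -0.01 and -0.05. The gene that rose was SMF3, a transporter of the vacuolar membrane known chiefly for iron. SMF3 had intensities of 609 and 633 in control, 558 and 725 in NOX and 1044 and 978 in AOX. Both AOX arrays lay above the others. SMF3 rose by 0.69 (SE 0.10, 1.61-fold, adjusted p = 0.022), and it was also higher in AOX than in NOX by 0.65 (adjusted p = 0.0168). The SMF3 call against control ended without control replicate 1 or 2 (adjusted p = 0.187 and 0.159) and without AOX replicate 1 or 2 (0.16 and 0.155), and that against NOX ended without the same arrays (0.0558, 0.0548, 0.128 and 0.101). PHO84, the high-affinity phosphate transporter, which can also carry zinc, was not well above background on either NOX array and was at least 1.30-fold higher in AOX than in NOX (adjusted p = 0.0107, and 0.0718 and 0.0997 without AOX replicates 1 and 2). Against control, PHO84 in NOX was called lower under the 4 other scalings (adjusted p = 0.0203 to 0.0399) but not under the reported one (0.103). PHO84 was also under background on 1 control array, and the reported fit gave only a lower bound of 1.13-fold there. FET4, a low-affinity transporter of iron, zinc and copper and a Zap1 target, had 82.8 and 77.8 in control, 58.6 and 60.0 in NOX and 71.1 and 67.0 in AOX, and stood at -0.26 in NOX (adjusted p = 0.0992, called only under the other scalings) and -0.18 in AOX (adjusted p = 0.295). IZH3, the remaining member of the IZH family on the list, and MSC2, ZRG17 and YKE4, zinc transporters of the secretory pathway, did not pass in any comparison.

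Zinc is also bound by abundant enzymes. ADH1 and ADH3, alcohol dehydrogenases whose genes are known to be repressed through Zap1 in zinc shortage, stood at -0.02 and -0.08 in AOX (95% intervals -0.17 to 0.13 and -0.23 to 0.07) and at 0.02 and -0.12 in NOX. Without NOX replicate 2, ADH3 in NOX was -0.19, and without NOX replicate 1 it was -0.05. Of 15 zinc enzyme genes, 1 rose in NOX (3.71% of all probe sets called) and 1 fell in AOX (3.58%), in both cases ADH2, the ethanol-oxidising alcohol dehydrogenase, at 1.98 and -1.31. The median of the list was -0.02 in NOX and -0.01 in AOX. Between AOX and NOX 2 were called, ADH2 and BDH1, both lower in AOX (4.38% of all probe sets). ADH2 stood at -3.29 there (log2, SE 0.08, adjusted p = 3.68e-05). BDH1, a butanediol dehydrogenase, stood at -0.33 in AOX relative to NOX (log2, SE 0.05, adjusted p = 0.0159; 0.0662 and 0.114 without AOX replicates 1 and 2, 0.0865 and 0.0861 without the control ones), and it stood at -0.26 in AOX against control (adjusted p = 0.0631, and 0.039 and 0.0352 without NOX replicates 1 and 2).

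The probe sets whose levels followed ZRT1 most closely were looked for among the 126 outside the zinc genes that ranged by at least 1 on the log2 scale. Those with the highest Pearson correlation over the 6 arrays were FRE7, a metalloreductase (0.998), FOX2 and POX1, enzymes of peroxisomal fatty acid oxidation (0.987 each), GDH3, a glutamate dehydrogenase (0.963), and ATO2, a membrane protein linked to ammonium export (0.961). Of these, ATO2 rose in NOX against control (0.51, adjusted p = 0.00907, called under 15 of 18 alternatives), where ZRT1 and the others did not pass. All 5 were lower in AOX, by changes of -1.02, -0.77, -0.86, -0.95 and -0.97. The GDH3 call ended without control replicate 1 or 2 (adjusted p = 0.155 and 0.164) and without AOX replicate 1 or 2 (0.122 and 0.22), while the other 4 were called under all 18 alternatives. FRE7 is the next protein-coding gene but for a pseudogene after ZPS1 in the R64 gene table, and its levels in AOX, 7.60 and 7.52 (normalized log2), were below the 8.57 to 8.66 of the other arrays. The most negative correlations were those of 2 probe sets for HXT13 (-0.994 and -0.993), of FRE5, a ferric reductase (-0.993), of HXT17 (-0.992) and of TKL2, a transketolase (-0.988). All of these but TKL2 were not well above background on the control and NOX arrays, and the HXT13 and HXT17 probe sets may bind near-identical relatives, so that their values are uncertain. With 3 strains, any gene that differs mainly in AOX has such a correlation, and the values describe these arrays only.

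**Figure D4:**
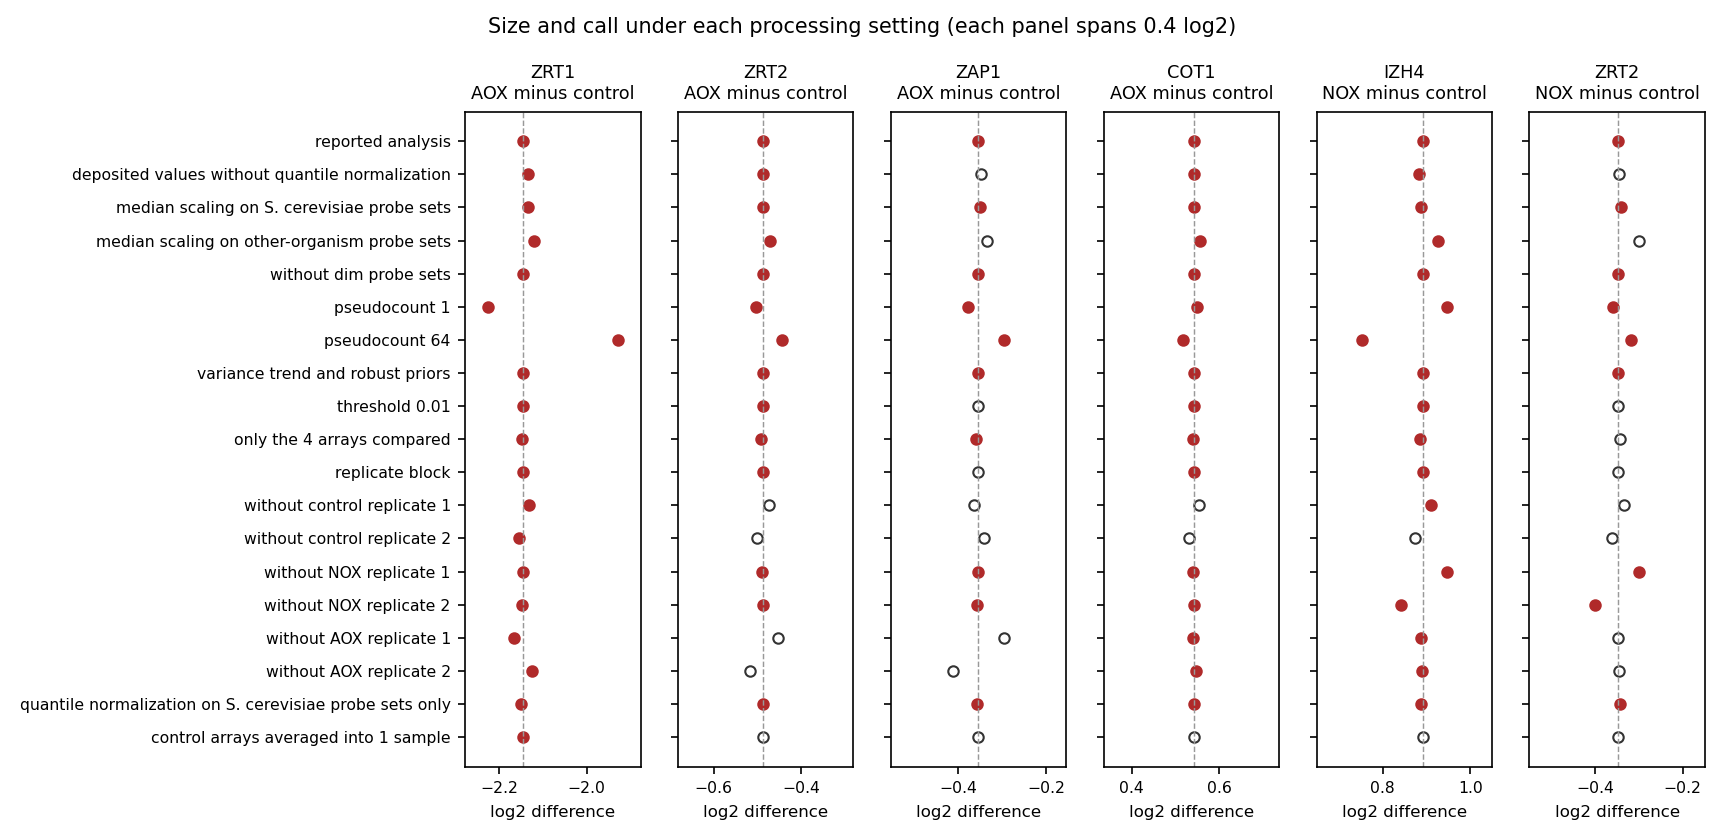
Log2 difference of 6 called results (panels) under the reported analysis and 18 other processing settings (rows); filled circles were called, open circles were not, and the dashed line marks the reported value. ZRT1 is filled in every row, while ZAP1 in AOX and ZRT2 in NOX are open in many rows although their size moved little.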

How the data were processed

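The authors deposited 1 table of linear-scale intensities, 1 value per probe set, for 6 arrays, hybridised with biotin-labelled material per the labels' protocols. The program and any scaling behind these intensities are not given in the sources used here. Of 10928 probe sets, 5498 matched 1 S. cerevisiae gene through the array annotation and the R64 gene table and were tested, 1747 named probe sets for another organism gave the background, and 3470 unnamed and 213 control probe sets were not tested. Samples were grouped by title. Intensities were transformed as log2(value + 16) and quantile-normalized over all probe sets. A limma 3.58.1 model (R 4.3.3) with a mean per strain gave the contrasts (lmFit, eBayes, 3 residual and 2.77 prior degrees of freedom), with Benjamini-Hochberg adjustment over 5498 probe sets at 0.05, and the fit was tested on simulated data. A probe set under background on both arrays of a strain gives only a lower bound of the fold, against that background. The number of arrays limits the precision.

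The 10 genes and the further lists were chosen with earlier results of these data known. The lists, from general knowledge, held other Zap1 targets, other zinc transport genes, genes repressed through Zap1, zinc enzymes and mating type markers. Named were all 10 genes, up to 6 called genes per list and comparison, ADH1, ADH3, ADH4 and FET4, and the 5 probe sets most and least correlated with ZRT1. FZF1, VEL1 and other list members were named in addition. The alternatives tried were other scalings, pseudocounts of 1 and 64, leaving out dim probe sets, robust priors with a variance trend, a 0.01 threshold, only the arrays compared, a replicate block and each array left out in turn. Chosen after seeing the data were quantile normalization on S. cerevisiae probe sets only and control arrays averaged into 1 sample.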

Additional observations from a re-analysis of the deposited data

Results flagged for a closer look

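The change from control differed between the AOX and NOX strains for 4 of the 10 zinc genes by the direct limma contrast of the 2 strains (n = 2 arrays each). In that contrast 8.38% of all probe sets were called. The difference, AOX minus NOX on the log2 scale, was -2.31 for ZRT1 (adjusted p = 8.95e-05), -0.86 for IZH4 (adjusted p = 0.00077), 0.52 for COT1 (adjusted p = 0.00191) and 0.30 for IZH2 (adjusted p = 0.0271). For ZRT1 and COT1 it lay with the AOX arrays, which stood apart from both other strains, and for IZH4 with the NOX arrays. These 3 genes kept their call under all 18 alternatives, while IZH2 kept it under 9 only.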

How the results depend on the processing

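Each comparison was recomputed under 18 alternatives. Of 540 recomputed values of the 10 zinc genes, 487 kept their direction and their side of the threshold, 38 lost and 7 gained a call, and 8 changed sign. ZRT1 in AOX was called under all 18, at -2.22 to -1.93 (adjusted p 2.77e-05 to 0.011), ZRT2 under 13, COT1 under 15 and ZAP1 under 9, and IZH4 in NOX under 16 (0.75 to 0.95) and ZRT2 there under 8. The 2 zinc genes called in NOX became 1 on the deposited values, with scaling on other-organism probe sets and at a threshold of 0.01. They also became 1 with only the 4 arrays compared and with the replicate block. They became 0 with the control arrays averaged and 0 to 4 with single arrays left out. In the reported limma fit, 5 of the 10 had an unadjusted p under 0.05 in NOX, where 22.3% of all probe sets did. The 4 called in AOX became 1 with the control arrays averaged and 1 to 4 with single arrays left out. With 1 array left in a strain, its variance is taken from the other strains; the cause of these shifts was not tested. Over all probe sets the calls in NOX, AOX and between them (204, 197 and 461) became 76, 115 and 195 at 0.01, 111, 363 and 204 with only 4 arrays, 79, 124 and 237 with the block and 13, 54 and 202 with controls averaged, and ran from 14 to 1443, 54 to 363 and 158 to 1476 with single arrays left out. The replicate block ended the calls of ZAP1 (adjusted p = 0.08), SMF3 (0.0568) and GDH3 (0.0634) in AOX, ZRT2 in NOX (0.0997) and, between AOX and NOX, IZH2 (0.0834), MCD4 (0.0753), DPP1 (0.131) and BDH1 (0.062). Arrays with the same number deviated together by r = 0.116 (control and NOX), -0.207 (control and AOX) and -0.60 (NOX and AOX), so the numbers were not taken to pair them. The value of -0.60 means that NOX and AOX arrays of unlike number deviated together. A block by number does not model this, and its cause was not tested. FET4 and PHO84 in NOX, not called as reported, were called under all 4 other scalings. They stood at -0.354 and -0.439 on the deposited values (adjusted p = 0.0345 and 0.0399) and at -0.35 and -0.435 with S. cerevisiae median scaling (0.0298 and 0.0217). With other-organism scaling they stood at -0.309 and -0.394 (0.0394 and 0.0219), and with S. cerevisiae quantiles at -0.42 and -0.543 (0.0227 and 0.0203). PHO84 was under background on both NOX arrays and 1 control array, so its sizes are uncertain.

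The values that changed sign lay between -0.117 and 0.103. On the deposited values these were COT1 (-0.000823) and ADH1 (-0.00885) in NOX and ZRC1 in AOX (-0.00569), with scaling on S. cerevisiae probe sets ADH1 in NOX (-0.00431) and ZRC1 in AOX (-0.00608), and with scaling on other-organism probe sets ZRT3 in NOX (0.0273) and ADH4 in AOX (0.00773). TKL2 in NOX was -0.00288 with only 4 arrays and -0.0345 with the S. cerevisiae quantiles, which put FRE5 at -0.0133. With single arrays left out, NOX values ran from -0.0764 to 0.061 for ZRT3, -0.0500 to 0.0838 for ADH1, -0.108 to 0.187 for SMF3, -0.117 to 0.129 for TKL2 and -0.163 to 0.103 for HXT17. AOX values ran from -0.0777 to 0.0785 for ZRC1, -0.0507 to 0.107 for IZH1, -0.0346 to 0.00336 for ADH1 and -0.0545 to 0.045 for ADH4. Between AOX and NOX they ran from -0.0266 to 0.104 for ADH3, -0.129 to 0.0097 for ZRT3 and -0.0999 to 0.0327 for ADH1.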
